A study of Mus musculus with 15 samples.

Results

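Genes by which fat cells store fat, release it and signal their fat content were followed in the whole mouse aorta. The genes are Plin1, Plin4 and Cidec, which act at the lipid droplet, Pnpla2, Lipe and Mgll, which break stored fat down, and Adipoq, Lep, Retn and Cfd, which encode secreted adipokines. Every probe set annotated to exactly 1 gene was taken when that gene was on this list of 10. This gave 13 probe sets for 8 genes, out of 45037 probe sets and 18193 genes measured. Plin1 and Cfd had no such probe set in the annotation used and were not analysed here. All 8 genes are described in every group, and no filter on low values was applied.

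RNA came from the aorta, root to bifurcation, of male C57BL/6 mice aged 9 weeks, 1 array per mouse. All mice lacked ApoE, a lipid carrier whose loss leads to high plasma cholesterol and atherosclerosis. The 4 groups were 4 diabetic ApoE-/- (replicates 1 to 4), 4 non-diabetic ApoE-/- (replicates 5 to 8), 4 diabetic ApoE-/- RAGE-/- (replicates 9 to 12) and 3 non-diabetic ApoE-/- RAGE-/- (replicates 13 to 15) aortas. RAGE, encoded by Ager, is the receptor for advanced glycation end products. Diabetes was brought on by 5 daily injections of streptozotocin at 65 mg/kg from 6 weeks of age, and the other mice received citrate buffer alone. The ApoE-/- mice came from a commercial breeder and the ApoE-/- RAGE-/- mice from another laboratory's colony, so genotype and colony cannot be told apart.

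A fat cell keeps triglyceride in a lipid droplet coated with perilipins, and Cidec lets small droplets merge into large ones. In fasting or when insulin is low, the lipases act in sequence: Pnpla2 (adipose triglyceride lipase) opens triglyceride, Lipe (hormone-sensitive lipase) cleaves diacylglycerol, and Mgll (monoglyceride lipase) frees the last fatty acid. Adiponectin (Adipoq) and leptin (Lep) are hormones of the fat cell, and in the mouse resistin (Retn) is one too. The aorta carries a sleeve of perivascular fat, which in the mouse thorax resembles brown fat.

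Levels are the deposited log2 values, so a difference of 1 is a factor of 2. The array medians spanned 4.35 to 4.42, and replicate 10 stood apart, with a median correlation of 0.974 with the other arrays against at least 0.985 for each of those. Its leptin receptor level was also the highest of the 15, at 7.72. Both Ager probe sets were dim, and neither was lower in the arrays labelled RAGE-/-, so no loss of Ager signal checks the genotype. The brighter Ager probe set read 4.17 to 4.69 on the 8 ApoE-/- arrays. On the 3 non-diabetic ApoE-/- RAGE-/- arrays it read 4.89 to 5.09. It read 5.36 and 4.95 in replicates 11 and 12, but 4.63 and 4.48 in replicates 9 and 10. The dimmer Ager probe set overlapped between the genotypes. Decr2, on chromosome 17 like Ager and looked at with earlier results known, read 5.32 to 6.01 on the 8 ApoE-/- arrays and 6.84 to 6.98 on the 3 non-diabetic ApoE-/- RAGE-/- arrays. Among the diabetic arrays labelled ApoE-/- RAGE-/- it read 7.40 and 7.56 in replicates 11 and 12, but 5.19 and 5.10 in replicates 9 and 10. The libraries labelled replicates 9 and 10 thus went against their label at Decr2 and at the brighter Ager probe set. The results that rest on these libraries are also given without them. Plin4 also lies on chromosome 17, but its values in replicates 9 to 12 did not split in that way.

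The aortas carried fat markers on every array. Fabp4, the fatty acid carrier of adipocytes, read 12.43 to 13.10, and Ucp1, the uncoupling protein that defines brown fat, read 10.48 to 12.31. Zic1, a marker of brown fat of the interscapular depot, stayed at 2.04 to 2.58. Acta2, the smooth muscle actin, averaged 13.36 in diabetic and 13.31 in non-diabetic ApoE-/- aortas. The libraries thus held RNA of fat as well as of the aortic wall, and in such bulk tissue fewer fat cells and less RNA per fat cell cannot be told apart.

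Plin4, a perilipin of adipocyte droplets, read 10.44, 10.21, 10.43 and 10.14 in replicates 1 to 4 of the diabetic ApoE-/- aortas. It read 10.60, 10.85, 10.74 and 10.67 in the non-diabetic ApoE-/- aortas, replicates 5 to 8. Every diabetic value was below every non-diabetic one. In ApoE-/- RAGE-/- aortas Plin4 read 10.67, 10.28, 10.30 and 10.79 with diabetes and 10.62, 10.99 and 10.65 without it. Those groups overlapped, with replicates 9 and 12 at the non-diabetic level and replicates 10 and 11 below it.

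Cidec, the droplet fusion protein, read 8.60, 9.54, 8.59 and 8.58 in diabetic ApoE-/- aortas and 9.91, 9.62, 9.48 and 9.88 in non-diabetic ones. Replicates 1, 3 and 4 were nearly equal, and replicate 2 alone lay among the non-diabetic values. In ApoE-/- RAGE-/- aortas Cidec read 9.19, 8.89, 9.79 and 10.09 with diabetes and 9.22, 9.79 and 9.79 without. Here the diabetic values reached both below and above the non-diabetic ones.

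Pnpla2, the lipase that starts triglyceride breakdown, was measured best by a probe set that read 10.07, 10.86, 9.70 and 10.07 in diabetic and 10.94, 10.53, 10.62 and 10.91 in non-diabetic ApoE-/- aortas. Replicate 2 again lay among the non-diabetic values, and the other 3 lay below all of them. With RAGE deleted, Pnpla2 read 10.67, 10.49, 11.17 and 11.01 in diabetic and 10.44, 10.95 and 10.90 in non-diabetic aortas, which overlapped.

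Lipe, the hormone-sensitive lipase, read 7.67, 8.53, 7.52 and 7.43 in diabetic and 9.15, 8.58, 8.58 and 8.98 in non-diabetic ApoE-/- aortas. All diabetic values were lower, although replicate 2 came close to the lowest non-diabetic value. In ApoE-/- RAGE-/- aortas Lipe read 8.34, 7.78, 8.85 and 9.25 with diabetes and 8.30, 8.82 and 9.19 without. Only replicate 10 lay below all 3 non-diabetic values.

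Mgll, which completes the breakdown, read 9.90, 9.98, 9.86 and 9.55 in diabetic and 10.76, 10.34, 10.27 and 10.34 in non-diabetic ApoE-/- aortas on its brightest probe set. These groups did not overlap, and replicate 2 was here not apart from the other diabetic arrays. With RAGE deleted Mgll read 9.92, 9.74, 10.43 and 10.66 in diabetic and 10.09, 10.53 and 10.18 in non-diabetic aortas. Replicates 9 and 10 were below the non-diabetic range, replicate 11 inside it and replicate 12 above it.

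Adipoq, the adiponectin gene, read 11.74, 12.28, 11.42 and 11.80 in diabetic and 12.04, 12.10, 11.97 and 12.11 in non-diabetic ApoE-/- aortas. Replicate 2 was the highest of these 8 arrays and the other 3 diabetic arrays the lowest. In ApoE-/- RAGE-/- aortas Adipoq read 11.78, 11.65, 12.35 and 12.30 with diabetes and 11.77, 12.15 and 12.30 without, which overlapped.

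Lep, the leptin gene, was read dimly: its probe set's mean lay at percentile 42.8 of all probe sets, and the values come with no detection call. It read 3.49, 3.23, 3.24 and 3.49 in diabetic and 3.66, 4.17, 3.81 and 4.37 in non-diabetic ApoE-/- aortas, which did not overlap. With RAGE deleted Lep read 3.39, 3.10, 3.55 and 4.53 in diabetic and 4.10, 3.95 and 5.52 in non-diabetic aortas. Replicate 15 was the highest of all arrays, and of the diabetic ones only replicate 12 reached the non-diabetic range.

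Retn, the resistin gene, read 8.65, 9.63, 8.77 and 9.46 in diabetic and 9.74, 9.67, 9.16 and 9.15 in non-diabetic ApoE-/- aortas. Replicates 1 and 3 were low and replicates 2 and 4 inside the non-diabetic range. In ApoE-/- RAGE-/- aortas it read 9.05, 9.44, 9.88 and 9.52 with diabetes and 9.40, 9.32 and 9.60 without, again overlapping.

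**Figure D1:**
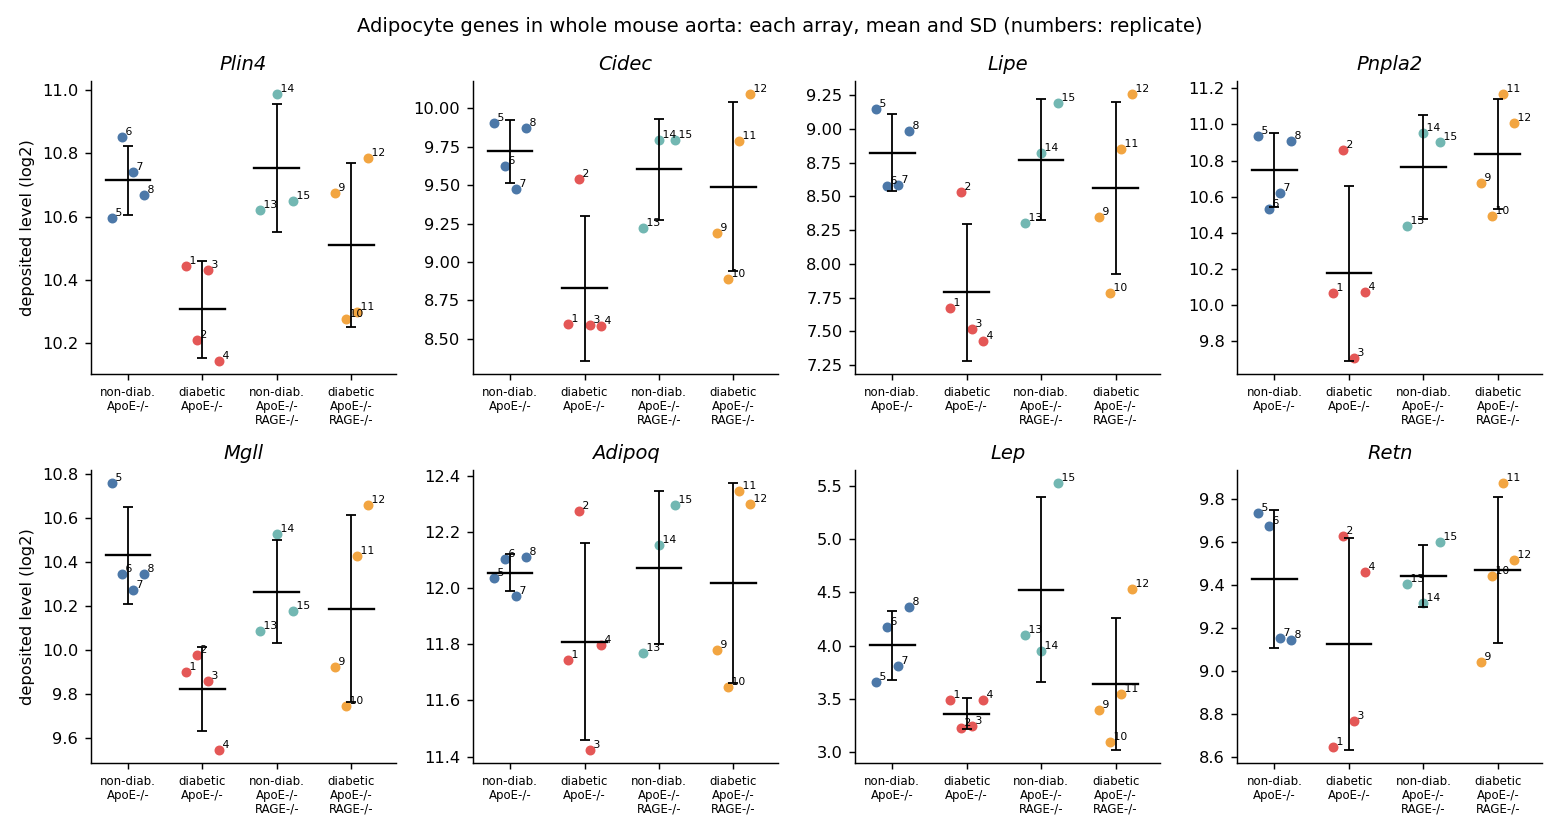
Deposited log2 level (vertical axis) of the 8 measured genes on each array, by group (horizontal axis). Points are mice with their replicate number, lines are group means and bars are SD; each panel has its own axis range. Plin4, Lipe, Mgll and Lep show no overlap between diabetic and non-diabetic ApoE-/- aortas, while replicate 2 lies within or above the non-diabetic values for Cidec, Pnpla2, Adipoq and Retn.

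The upstream sequences of Lep and Cidec are shown because theirs alone among the measured genes held 1 of the 3 motifs searched for, and that of Adipoq as a gene whose upstream sequence held none. Each is the 250 bases before an annotated transcript start, from RefSeq (build GRCm38.p6), 5′ to 3′ on the gene's strand. They lie at chr6:29059971-29060220 on the plus strand (Lep), chr6:113434765-113435014 on the minus strand (Cidec, from the further downstream of its 2 annotated starts) and chr16:23146286-23146535 on the plus strand (Adipoq). Capitals mark a match to TTGCNNAA, a short form of the site of the C/EBP factors that drive adipocyte genes.
Lep: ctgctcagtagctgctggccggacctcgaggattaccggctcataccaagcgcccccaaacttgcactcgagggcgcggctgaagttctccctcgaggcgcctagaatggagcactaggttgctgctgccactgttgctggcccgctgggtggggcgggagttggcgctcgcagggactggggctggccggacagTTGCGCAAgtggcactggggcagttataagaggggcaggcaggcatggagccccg
Cidec: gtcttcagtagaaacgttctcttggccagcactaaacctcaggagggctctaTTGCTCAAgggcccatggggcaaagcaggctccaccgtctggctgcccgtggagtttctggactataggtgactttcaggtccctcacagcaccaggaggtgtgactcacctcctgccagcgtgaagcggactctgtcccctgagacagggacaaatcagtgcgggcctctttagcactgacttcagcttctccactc
Adipoq: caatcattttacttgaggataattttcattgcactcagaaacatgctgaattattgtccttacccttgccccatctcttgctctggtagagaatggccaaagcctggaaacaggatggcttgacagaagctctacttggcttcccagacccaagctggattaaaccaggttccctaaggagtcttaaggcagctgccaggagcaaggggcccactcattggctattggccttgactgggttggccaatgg

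All 8 genes matched by Entrez ID to the RefSeq promoter table, with 11 transcript starts in all. Each window searched ran from 250 bases before to 50 after the start. On both strands, TTGCNNAA was found in 1 window each of Lep and Cidec, as TTGCGCAA at -55 to -48 and TTGCTCAA at -198 to -191, against 10.8% of all 32851 windows in the table. The Lep match reads the same on both strands. A direct repeat of AGGNCA with 1 base between the copies, the kind of element bound by PPAR gamma with its partner RXR, was in none of the 11 windows and in 0.381% of all. TATAAA was also in none of the 11 and in 13.6% of all. No match overlapped a match of another motif, and matches are letters in a window, not sites shown to be bound.

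The comparison of diabetic with non-diabetic ApoE-/- aortas asks what diabetes does to arterial expression when RAGE is present. The means of all 8 genes were lower with diabetes, with a median difference of -0.59 (log2), whereas 50.2% of all 18193 genes were lower, with a median of -0.00090. None of the 8 passed the limma test after Benjamini-Hochberg adjustment over all probe sets, and neither did any other probe set (0 of 45037, 0.0%). At an unadjusted p under 0.05, 4791 probe sets were past the threshold, and 76 had log odds (B) above 0. In 4 of the 8 genes every diabetic value was below every non-diabetic one, against 3.1% of all genes lower and 4.52% higher.

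Among droplet genes, Plin4 averaged 10.31 ± 0.15 (SD, n = 4) with diabetes and 10.71 ± 0.11 (SD, n = 4) without, a difference of -0.41 ± 0.13 (SE, limma adjusted p = 0.347). Cidec averaged 8.83 ± 0.47 (SD, n = 4) and 9.72 ± 0.21 (SD, n = 4), a difference of -0.89 ± 0.26 (SE, limma adjusted p = 0.338). The Cidec mean corresponds to 0.539 of the non-diabetic level on the linear scale.

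Among the lipases the differences were -1.04 ± 0.31 (SE) for Lipe, -0.57 ± 0.22 (SE) for Pnpla2 and -0.61 ± 0.18 (SE) for Mgll, with limma adjusted p-values of 0.340, 0.398 and 0.342. Lipe, at 0.488 of the non-diabetic level, had the widest difference of the 8 genes. The 95% intervals of all 3 lipases, of Plin4 and of Cidec lay below 0 before adjustment, at -1.69 to -0.38 for Lipe and -1.04 to -0.11 for Pnpla2.

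The adipokines had smaller differences relative to their spread. Adipoq differed by -0.25 ± 0.19 (SE), Retn by -0.30 ± 0.23 (SE) and Lep by -0.64 ± 0.33 (SE), with limma adjusted p-values of 0.667, 0.668 and 0.504. Their 95% intervals all included 0. That of Adipoq ran from -0.64 to 0.15. Single arrays moved the values of Adipoq and Retn both ways: Adipoq was -0.40 without replicate 2 and -0.12 without replicate 3, and Retn was -0.47 without replicate 2 and -0.14 without replicate 1.

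Replicate 2 read highest of the diabetic ApoE-/- aortas for Cidec, Lipe, Pnpla2 and Adipoq. For Retn it lay just above replicate 4, and for Mgll just above replicate 1. Without it, the differences were -1.13 for Cidec, -1.28 for Lipe and -0.80 for Pnpla2, and the limma adjusted p-values of the 8 genes ran from 0.115 to 0.520. Without it 7 of the 8 genes had no overlap, all except Retn, against 9.48% of all genes in the same 3-against-4 comparison. This array was left out for its values here, after they were seen, so this count is a description.

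The same comparison in ApoE-/- RAGE-/- aortas asks what diabetes does when RAGE is deleted. Here 6 of the 8 means were lower with diabetes, the median difference over the 8 being -0.10, against 55.8% of all genes, whose median was -0.02. None of the 8 passed the limma test (0.0% of probe sets did, and 3269 were past an unadjusted p of 0.05), and none had groups without overlap, against 4.3% of genes lower and 2.39% higher.

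Lep had the widest difference, -0.88 ± 0.35 (SE, limma adjusted p = 0.674), from a mean of 4.52 ± 0.87 (SD, n = 3) to 3.64 ± 0.62 (SD, n = 4). It rested largely on replicate 15 and was -0.38 without that array. Plin4 followed at -0.24 ± 0.14 (SE), and Lipe at -0.21 ± 0.33 (SE), while the others lay between -0.11 and 0.07. The intervals were wide: that of Cidec ran from -0.72 to 0.49.

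Leaving out replicates 9 and 10 turned the direction of 4 of the 8 genes. The differences of Cidec, Lipe and Mgll became 0.34, 0.28 and 0.28, that of Adipoq 0.25, that of Pnpla2 0.32 and that of Retn 0.25, while Plin4 stayed at -0.21 and Lep at -0.49. None of these passed the limma test (adjusted p = 0.999 for all 8). With 2 diabetic arrays left, Adipoq and Pnpla2 were above all non-diabetic arrays, against 8.11% of all genes. Leaving out replicates 9 and 10 thus took Cidec, Lipe, Mgll and Adipoq from lower to higher. Pnpla2 and Retn were higher and Plin4 and Lep lower both ways. Other single arrays turned directions too: Pnpla2 was -0.039 without replicate 11 and -0.093 without replicate 13. Retn was -0.11 without replicate 11 and -0.033 without replicate 14. Mgll was 0.055 without replicate 14, and Adipoq 0.057 without replicate 15. With all arrays, the differences of all but Plin4 and Lep were within 1 standard error of 0.

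The differences with RAGE deletion in non-diabetic aortas were smaller than their standard errors for 7 of the 8 genes. Of the 8 means 5 were higher and 3 lower in ApoE-/- RAGE-/- aortas, and these 7 differences lay between -0.16 and 0.04, with standard errors of 0.14 to 0.33. Lep was the exception at 0.52 ± 0.35 (SE), a value that became 0.02 without replicate 15. No gene passed the limma test (0.0% of probe sets did, and 1159 were past an unadjusted p of 0.05), and all 8 had overlapping groups, against 2.57% of genes lower and 2.3% higher without overlap. The intervals still allowed sizeable differences, such as -0.76 to 0.65 for Lipe.

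**Figure D2:**
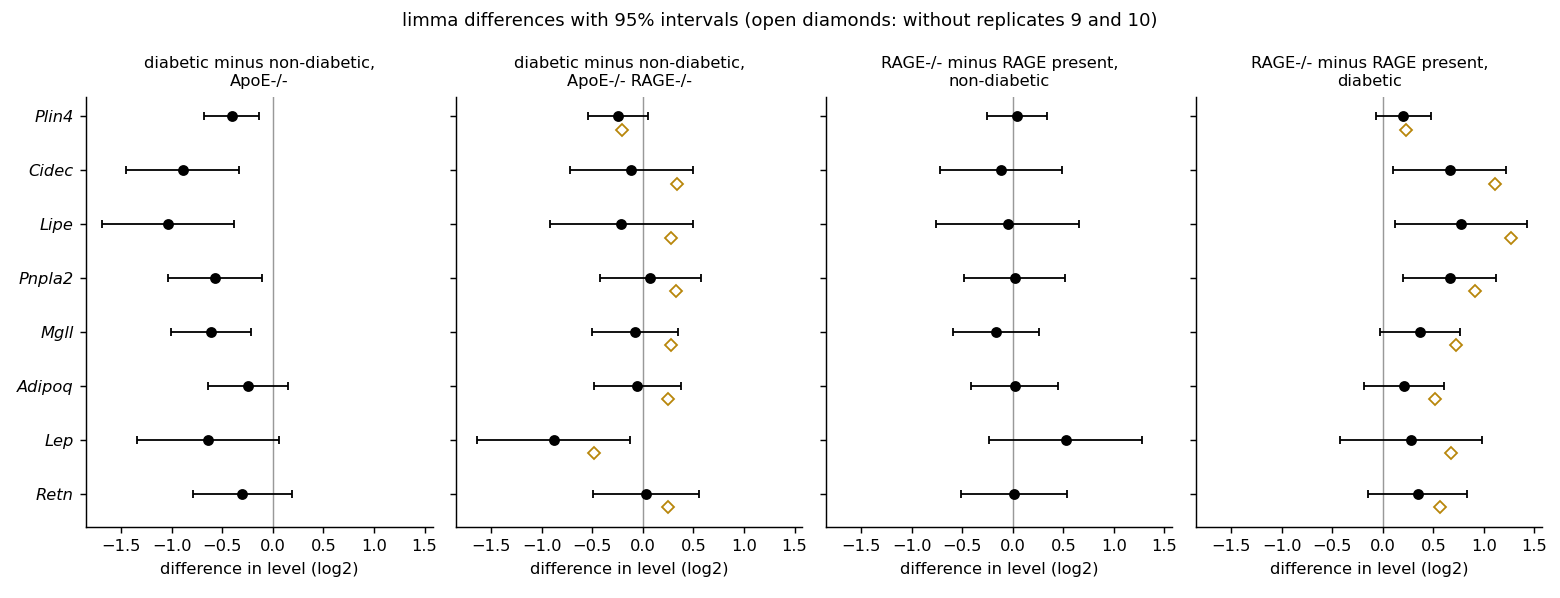
Difference in log2 level (horizontal axis) for each of the 8 genes (vertical axis) in the 4 comparisons; filled points are limma estimates and bars their 95% intervals. Open diamonds give the estimates without replicates 9 and 10, where those arrays enter. All 8 points lie left of 0 for diabetes in ApoE-/- aortas and right of 0 for RAGE deletion in diabetic aortas.

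RAGE deletion in diabetic aortas was, with all 15 arrays in the fit, the comparison with calls over the array as a whole, with 110 of 45037 probe sets called (0.244%), 12 of them higher and 98 lower. That count fell to 0 without replicate 1, 3, 4 or 14, or with only the compared groups in the fit, and the same restricted fit called 5, 5 and 12 probe sets in the other 3 comparisons. None of the 13 probe sets of the fat storage genes was among them. All 8 genes had higher means in diabetic ApoE-/- RAGE-/- than in diabetic ApoE-/- aortas, by a median of 0.35, whereas the median over all genes was -0.002. This comparison shares its diabetic ApoE-/- arrays with the first one, so its values are set beside those and are no separate evidence.

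Lipe differed by 0.77 ± 0.31 (SE), from a mean of 7.79 ± 0.51 (SD, n = 4) to 8.56 ± 0.64 (SD, n = 4), with a limma adjusted p of 0.254. Pnpla2 differed by 0.66 ± 0.22 (SE), from 10.18 ± 0.49 (SD, n = 4) to 10.84 ± 0.31 (SD, n = 4), with a limma adjusted p of 0.172, the lowest of the 8. Cidec differed by 0.66 ± 0.26 (SE) at a limma adjusted p of 0.254. The 95% intervals of these 3 genes lay above 0, and those of the other 5 included it.

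Mgll differed by 0.37 ± 0.18 (SE), Retn by 0.34 ± 0.23 (SE), Lep by 0.28 ± 0.33 (SE), Adipoq by 0.21 ± 0.19 (SE) and Plin4 by 0.20 ± 0.13 (SE). Some of these rested on 1 array: without replicate 12 Lep was -0.02, Plin4 0.11 and Mgll 0.21, without replicate 3 Adipoq was 0.081, and without replicate 1 Retn was 0.18. All 8 genes overlapped between the groups, where 1.86% of genes were higher and 5.86% lower without overlap. Of the 8, Pnpla2 alone became a call under any alternative tried: without replicate 2 its difference was 0.89 and its limma adjusted p 0.0303. Over the whole array 931 probe sets (2.07%) were called in that fit, and Lipe, Pnpla2 and Cidec were higher without overlap, against 6.58% of genes.

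Without replicates 9 and 10 the differences were wider, at 1.26 for Lipe, 1.11 for Cidec, 0.91 for Pnpla2, 0.72 for Mgll, 0.68 for Lep, 0.57 for Retn, 0.51 for Adipoq and 0.23 for Plin4. None passed the limma test, the adjusted p-values running from 0.105 to 0.482, and 22 probe sets were called in all (0.0488%). In that comparison of 2 with 4 arrays, 6 of the 8 genes were higher without overlap, against 13.3% of all genes. Retn and Plin4 overlapped.

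The interaction asks whether the diabetes difference itself differed between genotypes. It was positive for 7 of the 8 genes, with a median of 0.43, and negative for Lep at -0.24 ± 0.48 (SE), which became 0.26 without replicate 15. The highest values were 0.82 ± 0.45 (SE) for Lipe, 0.78 ± 0.39 (SE) for Cidec and 0.64 ± 0.32 (SE) for Pnpla2. No limma adjusted p was below 0.704, and no probe set on the array passed (0.0%, with 3251 past an unadjusted p of 0.05). Without replicates 9 and 10 the interaction was positive for all 8, at 1.32 for Lipe, 1.23 for Cidec and 0.89 for Mgll, with adjusted p-values of 0.575 and above. A different response of fat storage genes to diabetes in the 2 genotypes was therefore not shown.

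Lipe, Pnpla2 and Mgll had more than 1 probe set, and the dim ones differed less with diabetes in ApoE-/- aortas. The other Lipe probe set (1432180_at) read 2.39 to 2.74 on all arrays, at percentile 12.2 of the means, and differed by 0.081 with diabetes in ApoE-/- aortas. The dim Mgll probe set (1431331_at), at 4.16 to 4.85, differed by -0.071 there. The other Pnpla2 probe set (1428591_at), at 5.00 to 5.77, differed by -0.14. Over the 15 arrays it had a Pearson r of 0.832 with the brighter Pnpla2 probe set, whereas the dim Lipe and Mgll probe sets had -0.26 and 0.30 with their brighter ones. The remaining pair of Mgll probe sets, 1450391_a_at and 1453836_a_at, were bright and differed by -0.70 ± 0.23 (SE) and -0.62 ± 0.31 (SE), with no overlap in either, so 3 of the 4 Mgll probe sets gave the same picture.

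The genes varied together across mice to different degrees. Over the 15 arrays Cidec and Lipe had a Pearson r of 0.983, Cidec and Pnpla2 0.914, Lipe and Pnpla2 0.898, Cidec and Mgll 0.885 and Cidec and Adipoq 0.865. Plin4 had 0.554 with Cidec and -0.071 with Retn, and Lep 0.583 with Cidec. These values include the differences between groups, and the genes of an array share its tissue piece and its normalization.

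Of all 18193 genes, those most like each member over the 15 arrays were ranked by Pearson r. Lipe itself was most like Cidec, followed by Mccc2 (0.983) and Crat (0.980). Cpt2, the mitochondrial carnitine palmitoyltransferase, was most like Lipe (0.983), with Cidec next and Bckdha at 0.982. Uqcrc2, Chchd10 and Ndufv1 were most like Pnpla2 (0.987, 0.982 and 0.980), and Ndufab1, Hsdl2 and Hspe1 most like Adipoq (0.959, 0.956 and 0.954). For Mgll they were Ppm1m, Rab1b and Zbtb7b (0.952, 0.933 and 0.923), for Plin4 Ppp2r5d, Srbd1 and Car11 (0.935, 0.894 and 0.879), for Lep Cideb, Ak3 and Tff1 (0.918, 0.895 and 0.880), and for Retn Chrm1, Gjb2 and Dusp22 (0.873, 0.845 and 0.840). Plin4, Lep and Retn thus had no gene as close to them as Cidec, Lipe and Pnpla2 had.

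Other genes of fat storage were read in lists for triglyceride synthesis, droplet proteins, control of lipolysis, fatty acid uptake, adipogenic transcription factors, adipokine receptors and other adipokines. None of their measured genes passed the limma test in any comparison with all arrays in the fit. With diabetes in ApoE-/- aortas, all 7 genes of triglyceride synthesis were lower, with a median of -0.79. The 3 with the smallest p were Gpd1, which makes glycerol phosphate (-1.36 ± 0.31, SE), Dgat2, which adds the last fatty acid (-1.07 ± 0.27, SE), and Agpat2, an acyltransferase mutated in human lipodystrophy (-1.48 ± 0.40, SE). Each had groups without overlap, and their limma adjusted p-values were 0.284 to 0.310.

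All 9 other droplet proteins were lower in that comparison (median -0.36), with Plin5, the perilipin of oxidative tissues, at -1.21 ± 0.33 (SE) and Cidea, the droplet protein of brown fat, at -0.95 ± 0.28 (SE). Of 10 measured regulators of lipolysis, 9 were lower (median -0.64). They included the antilipolytic receptors Hcar2 (-0.74 ± 0.17, SE) and Hcar1 (-0.80 ± 0.22, SE) and the protein kinase A subunit Prkar2b (-0.97 ± 0.28, SE). Hcar2 and Hcar1 were read dimly, at percentiles 50.7 and 41.3 of the probe set means, with no detection call. All 4 measured genes of fatty acid uptake were lower (median -0.55), such as Lpl, lipoprotein lipase, at -0.42 ± 0.15 (SE). All 5 transcription factors were lower (median -0.42), with Cebpa at -0.72 ± 0.26 (SE) and Pparg at -0.68 ± 0.33 (SE).

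Genes that receive adipokine signals did not all share that direction. Of 4 receptors 2 were lower and 2 higher in diabetic ApoE-/- aortas, with the adiponectin receptor Adipor2 at -0.54 ± 0.19 (SE) and the leptin receptor Lepr at 0.72 ± 0.42 (SE). Of 7 other adipokines 6 were lower, the median being -0.10, with Nampt (visfatin) at -0.52 ± 0.16 (SE), while Rarres2 (chemerin) was higher by 0.24 ± 0.11 (SE). In the heatmap the lower values of replicates 1, 3 and 4 run through the synthesis, lipolysis and uptake genes, while replicate 2 is paler in most rows.

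**Figure D3:**
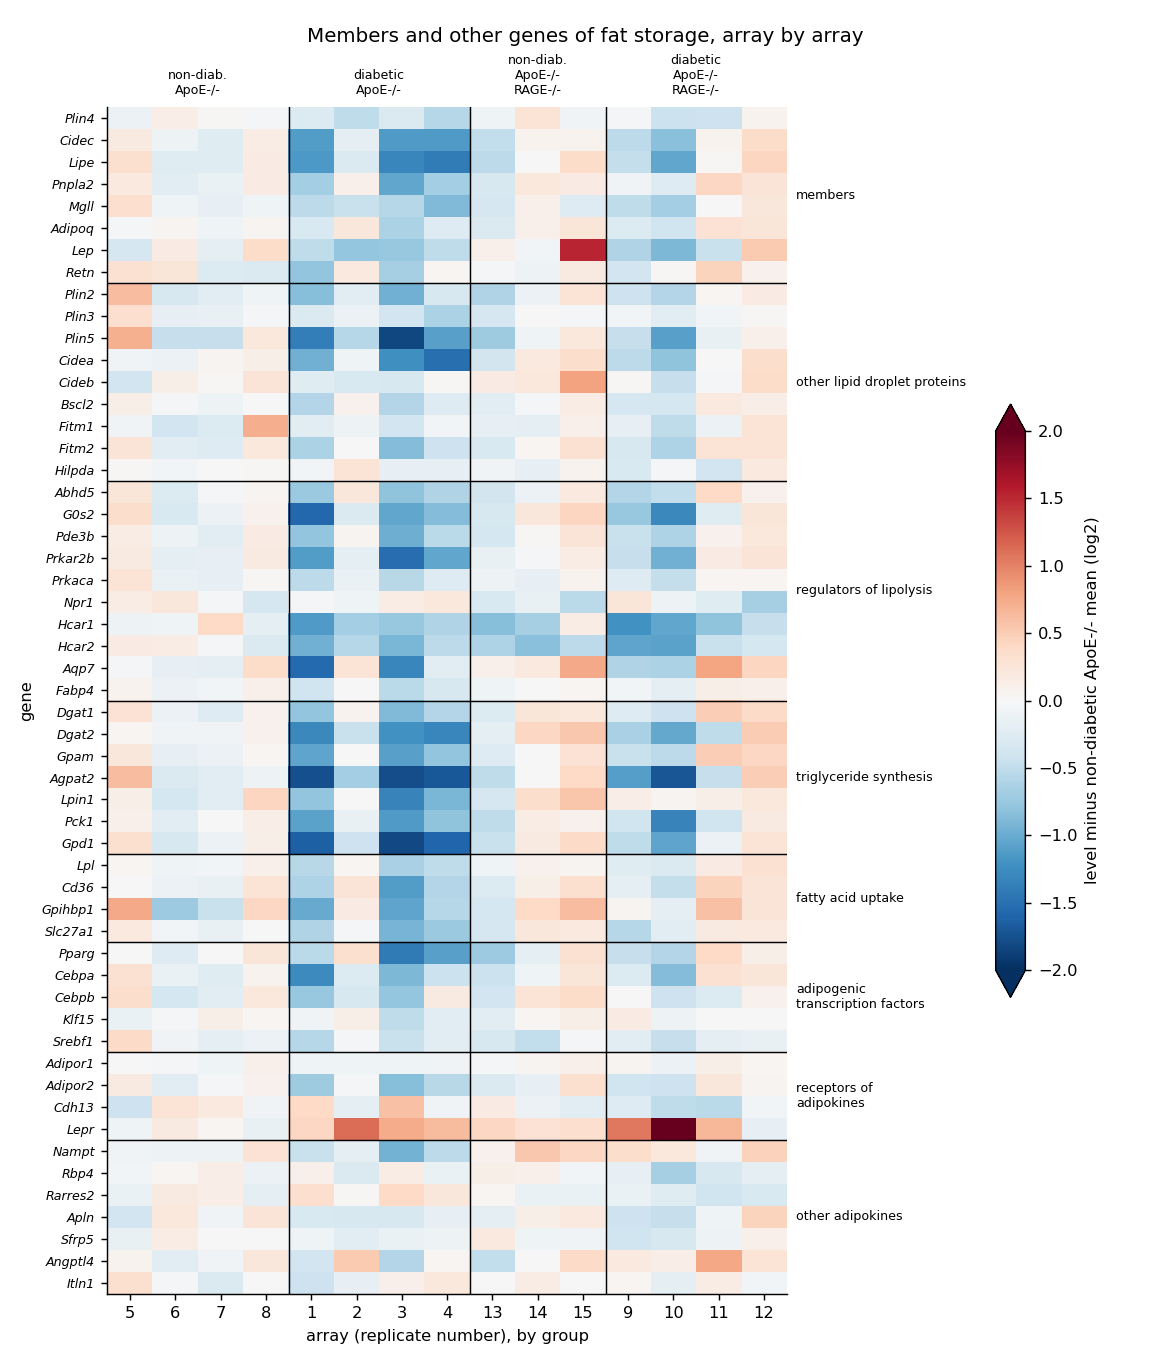
Level of each gene (rows, grouped by list) on each array (columns, by replicate number and group), minus its mean in non-diabetic ApoE-/- aortas (log2, colour scale ending at 2 either way). Blue in replicates 1, 3, 4 and 10 runs through most genes of droplets, lipolysis and triglyceride synthesis. The adipokine receptors do not share it as a list: Adipor2 is lower in those arrays and Lepr higher.

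With RAGE deleted, diabetes came with medians of -0.39 for triglyceride synthesis (7 of 7 lower), -0.07 for other droplet proteins (8 of 9), -0.13 for regulators of lipolysis (8 of 10) and -0.05 for uptake (4 of 4). The medians were 0.03 for transcription factors (2 of 5 lower), -0.05 for adipokine receptors (3 of 4) and -0.17 for other adipokines (6 of 7). The medians of the first 4 lists turned from negative to positive when replicates 9 and 10 were left out. Without them 3 of 7 synthesis genes were lower (median 0.04), as were 2 of 9 droplet proteins (0.17), 3 of 10 regulators of lipolysis (0.15), 0 of 4 uptake genes (0.20), 1 of 5 transcription factors (0.11), 2 of 4 receptors (-0.03) and 5 of 7 other adipokines (-0.01). Gpam, which starts glycerolipid synthesis, was then 0.44 higher with diabetes and Dgat1, which like Dgat2 adds the last fatty acid, 0.38 higher. Both were without overlap, as were 8.11% of all genes in that direction with replicates 9 and 10 left out. No gene of these lists passed the limma test there.

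For RAGE deletion in diabetic aortas all 7 synthesis genes were higher (median 0.72, and 1.07 without replicates 9 and 10). Lpin1, a phosphatidate phosphatase, differed by 0.89 ± 0.25 (SE, limma adjusted p = 0.123, no overlap). All 4 uptake genes (median 0.50) and all 5 transcription factors (median 0.28) were higher too, with medians of 0.82 and 0.33 and the same counts without replicates 9 and 10. Of the droplet proteins 8 of 9 were higher (median 0.28) and of the regulators of lipolysis 8 of 10 (median 0.32), against 8 and 9 without those arrays. Of the 4 adipokine receptors 3 were higher (median 0.23), but 2 without them (median -0.16), and of the 7 other adipokines 4 were higher (median 0.04), or 5 without them (median 0.14). Nampt at 0.76 ± 0.16 (SE) and Rarres2 at -0.51 ± 0.11 (SE) came nearest to a call, with limma adjusted p-values of 0.0659 and 0.0594, and both had groups without overlap. Without replicates 9 and 10 they were 0.72 and -0.60, with adjusted p-values of 0.135 and 0.103. Without replicate 2 limma called 6 genes of these lists there, with adjusted p-values of 0.0231 to 0.0483. Lpin1, Gpd1, Fabp4, Lpl and Nampt were higher and Rarres2 lower. Over the whole array 931 of 45037 probe sets (2.07%) were called in that fit. Replicate 2 was singled out after its values were seen, so the 6 calls are a description.

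Markers of several cell types differed alongside these genes, and their part in the results was not tested. In diabetic ApoE-/- aortas all 9 measured white adipocyte markers were lower (median -0.72), their mean level per array being 7.60, 8.62, 7.56 and 7.96 against 8.42 to 8.77 without diabetes. Replicate 2 was again the high one. Of 9 brown adipocyte markers 6 were lower (median -0.84), and Ucp1 differed by -1.06 ± 0.33 (SE). Ppargc1a, Dio2 and Prdm16 were the 3 with higher means. With diabetes in ApoE-/- RAGE-/- aortas Ucp1 differed by -0.36 ± 0.36 (SE), but by 0.23 ± 0.34 (SE) without replicates 9 and 10. Of the 9 brown markers 5 were lower there (median -0.16), but 2 without those arrays (median 0.23). With RAGE deletion in diabetic aortas Ucp1 differed by 0.72 ± 0.33 (SE), and by 1.31 ± 0.32 (SE) without those arrays. Of the 9 brown markers 6 were higher there (median 0.68), and 7 without those arrays (median 1.06). The white list shares Fabp4, Aqp7, Pck1, Pparg and Cebpa with the lists above and the brown list shares Cidea, so these are partly the same genes.

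All 7 macrophage markers were higher with diabetes in ApoE-/- aortas (median 0.27), their mean per array being 7.44 to 7.92 against 7.30 to 7.50. All 7 were also higher in ApoE-/- RAGE-/- aortas (median 0.55), at 7.37 to 8.44 against 7.07 to 7.41, with replicate 10 the highest, and 7 of 7 remained higher without replicates 9 and 10 (median 0.41). Skeletal muscle markers, 11 of 11, were higher without overlap in diabetic ApoE-/- RAGE-/- aortas, with mean levels of 7.23 to 9.34 against 3.97 to 4.80 (11 of 11 also without replicates 9 and 10). In ApoE-/- aortas these mean levels varied within both groups, from 4.92 to 8.02 with diabetes and from 4.10 to 7.61 without. The mean level of the smooth muscle markers stayed within 10.83 to 11.46 on all arrays, with a median difference of 0.06 for diabetes in ApoE-/- aortas. Single markers could vary more, such as Smtn from 9.69 to 11.03. With diabetes in ApoE-/- RAGE-/- aortas 5 of 5 neutrophil (median 0.44) and 6 of 7 endothelial markers (median 0.35) were higher. Airway and lung markers were higher in 3 of 5 (median 0.19). Without replicates 9 and 10 these counts were 5, 7 and 4 (medians 0.50, 0.47 and 0.45). The airway gene Scgb1a1 read 8.42, 8.94, 10.90 and 5.59 in replicates 9 to 12. It read 3.12 to 3.98 in replicates 13 to 15 and 5.52 to 7.77 in replicates 1 to 8.

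With RAGE deletion in diabetic aortas, where the fat storage genes had higher means, all 9 white adipocyte markers were higher (median 0.55) and all 11 skeletal muscle markers too (median 2.01, 1 of them without overlap). Of the smooth muscle markers 7 of 8 were lower (median -0.20), as were 7 of 7 fibroblast markers (median -0.11), while 6 of 7 macrophage markers were higher (median 0.20). Without replicates 9 and 10 all 9 white adipocyte (median 0.94) and all 11 skeletal muscle markers (median 2.39) were higher, smooth muscle markers were lower in 7 of 8 (median -0.24) and fibroblast markers in 5 of 7 (median -0.04), and macrophage markers were higher in 4 of 7 (median 0.01). The part of these markers in the result was not tested. Pnpla2 and Mgll are also expressed in cells other than adipocytes.

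**Figure D4:**
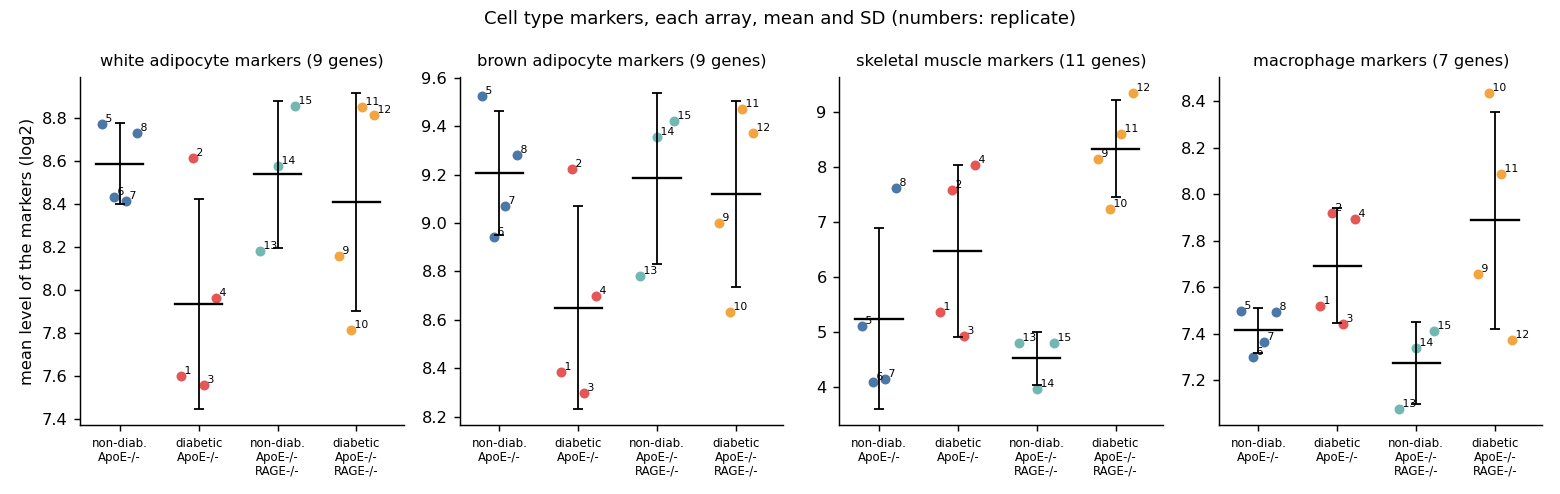
Mean log2 level (vertical axis) of the white adipocyte, brown adipocyte, skeletal muscle and macrophage markers on each array, by group; lines are group means, bars SD, and numbers replicates. Replicate 2 lies above the other diabetic ApoE-/- arrays for both adipocyte lists, and the muscle markers have their highest group mean in diabetic ApoE-/- RAGE-/- aortas.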

How the data were processed

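Each of 15 mouse aortas gave RNA for 1 Affymetrix array. The deposited values are log2 levels made by the authors with RMA, per the submitters' processing notes (version and number of runs not given in the sources used here), and were not normalized again. Arrays have no sequencing depth; the number of mice sets how precise a difference is. Of 45101 probe sets, 64 controls were left out; 34945 of the 45037 tested carried 1 gene, 932 several and 9160 none named here (annotation of 2016). By Entrez ID 34741 matched a RefSeq gene table (GRCm38.p6, used for names and chromosomes). The probe set with the highest mean stood for each of 18193 genes.

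Groups came from the labels, and p-values measure the spread between these mice. The tests were those of limma 3.58.1 (R 4.3.3): 1 mean per group, all 15 arrays, Benjamini-Hochberg adjustment over all probe sets, threshold 0.05. The members and lists were chosen with earlier results of these data known. Up to 3 genes of each list were named by smallest p, and the 3 genes most like each member by Pearson r; Fabp4, Ucp1, Zic1, Acta2 and Decr2 serve as checks. The fit was tested on simulated data. Alternatives were a trended robust variance, B above 0, median centring or quantile normalization of the arrays, array weights, a fit on the compared groups only or without dim probe sets, other probe sets or 1 per gene, and arrays left out singly or, for replicates 9 and 10, together. Counts of genes without overlap, and the values of the gene lists, after leaving out replicate 2, or 9 and 10, were chosen after seeing the data. Figures used matplotlib 3.10.9.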

Additional observations from a re-analysis of the deposited data

Results flagged for a closer look

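In 3 results 1 array lay far from the others of its group, among 39 groups of 4 arrays tested over the 13 probe sets; chance alone gives such a gap in about 1 in 20 groups. Cidec read 9.54 in diabetic ApoE-/- replicate 2, a gap to the next array that took up 0.986 of the group's range. Lipe, on its dim probe set 1432180_at, read 2.46 in non-diabetic ApoE-/- replicate 5, while the other 3 arrays of the group held 1 identical value. Mgll, on probe set 1426785_s_at, read 10.8 in non-diabetic ApoE-/- replicate 5, with a gap of 0.849 of the range. Without that array the Mgll difference for diabetes in ApoE-/- aortas was -0.50, and without replicate 2 that of Cidec was -1.13.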

How the results depend on the processing

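No paired analysis was possible because the groups share no replicate numbers. Of 932 member differences recomputed, 887 kept their sign; of the 45 with another sign, 40 belonged to differences within 1 standard error. The other 5 came from dim probe sets: Lipe on 1432180_at was 0.081 for diabetes in ApoE-/- aortas, -0.12 for RAGE deletion in diabetic aortas and -0.18 for the interaction, and Mgll on 1431331_at was -0.17 and -0.11 for the latter pair. A single call arose, for Pnpla2 as given above. Probe sets called for diabetes in ApoE-/- aortas (0) were 76 at B above 0, 7 with array weights, 5 with only the compared groups, 1 each with dimmer probe sets left out, quantile normalization or 1 probe set per gene, and 0 to 3 with 1 array left out. For RAGE deletion in non-diabetic aortas (0) they were 5 with only the compared groups and 9 without replicates 9 and 10, and for diabetes in ApoE-/- RAGE-/- aortas (0) 4 at B above 0, 12 with only the compared groups and 0 to 49 with 1 array left out (49 without replicate 12). For RAGE deletion in diabetic aortas (110) they were 321 at B above 0, 253 with dimmer probe sets left out, 72 with 1 probe set per gene, 53 with array weights, 22 without replicates 9 and 10, 0 with only the compared groups, and 0 to 931 with 1 array left out (0 without replicate 1, 3, 4 or 14, and 931 without replicate 2). The causes were not tested. Without replicate 2, or 9 and 10, members higher without overlap in that comparison were 3 or 6, against 0 with all arrays, while the share over all genes rose from 1.86% to 6.58% or 13.3% as fewer arrays were compared. The submitters' threshold of B above 0 called 2 other adipokines there. Values near the dim end, Lep's included, carry no detection call.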
